A study of Mus musculus with 16 samples.

Results

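Secreted factors that neutrophils can make for epithelium, vessels and other myeloid cells were followed through blood neutrophils with and without the lymphotoxin β receptor (LTβR). The members were taken by gene symbol, namely Osm, Csf1, Vegfa, Hbegf, Tgfb1, Areg, Il10, Il6, Thbs1 and Tnfsf13b, and all 10 were among the 23337 symbols of the count table. Transcripts of 7 of them passed the filter on low counts, and Areg, Il10 and Il6 did not. Among these factors, Osm was the most abundant transcript in all 16 libraries. Osm and Hbegf were higher and Thbs1 was lower in the libraries labelled stimulated. Of these, only Osm was no longer called when the index in the library titles entered the fit. Between the genotypes 0 of the 7 tested were called, where only 0.0217% of all 9213 tested genes were called under each label.

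Neutrophils reach an injured tissue early and release ready-made granule proteins as well as newly made cytokines. Oncostatin M, encoded by Osm, is an IL-6 family cytokine that acts on stromal and epithelial cells and is known in inflammatory bowel disease. HB-EGF and amphiregulin are ligands of the epidermal growth factor (EGF) receptor that are made as membrane proteins and cut free by proteases, TGF-β1 is released from a latent complex, VEGF-A acts on vessels, and thrombospondin-1 limits vessel growth and activates latent TGF-β1.

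Bulk RNA-Seq was done on neutrophils that were enriched from the blood of 8 week old C57/Bl6 mice with magnetic beads, by negative selection. Control (Ctrl) mice were Cre-negative Ltbr fl/fl littermates, and LTβRΔN mice carried the same floxed Ltbr alleles with Mrp8-Cre, a transgene that drives Cre in the neutrophil lineage and also carries GFP according to the column names. The groups were unstimulated Ctrl (n = 3), stimulated Ctrl (n = 4), unstimulated LTβRΔN (n = 4) and stimulated LTβRΔN (n = 5). By the protocol, cells were kept for 2 h in TNF and GM-CSF (100 ng/ml each) together with IL-6 (50 ng/ml), and LIGHT, a ligand of LTβR, was added to some at 500 ng/ml, whereas the series text gives the cytokines themselves as what was present or absent. No label says which library received LIGHT, so the groups are called stimulated and unstimulated, as labelled. The labels also do not say that the libraries of a group came from separate mice, so p-values measure the spread between these libraries, which may in part be technical.

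Between 1094335 and 11932653 reads were counted per library. Levels are given as CPM, the counts of a gene per 1000000 counts of its library after TMM scaling of the library totals. Ltbr, the deleted gene, held 84.6 to 154 CPM in Ctrl and 0.704 to 18.1 CPM in LTβRΔN libraries, so that it was lower in LTβRΔN than in Ctrl libraries by 3.80 (unstimulated) and 3.72 (stimulated) on the log2 scale, and Cish, Socs3 and Nfkbia, which respond to GM-CSF, IL-6 and TNF, were higher in stimulated libraries by 8.60, 4.03 and 5.001 (Ctrl) and by 8.05, 3.59 and 4.85 (LTβRΔN). The 7 neutrophil markers found in the table summed to between 44990 and 75455 CPM, while sums of NK cell, B cell, basophil and erythroid markers were at most 5.94 CPM. Monocyte markers summed to between 341 and 562 CPM, with 3 to 5 of the 8 at 0 in every library of a group and Fn1 at 0 throughout, and their part in the results was not tested. Sums of T cell and of eosinophil markers reached 16.8 and 11.3 CPM. Library titles also carry an index, S520 in 6 libraries (all unstimulated LTβRΔN and unstimulated Ctrl replicates 1 and 2) and S521 in the other 10 libraries, so index and treatment cannot be told apart within LTβRΔN.

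Promoters of 6 members were found in the RefSeq sequences of mouse build GRCm38.p6, and those of Osm, Hbegf, Il10 and Thbs1 were not among them. The 250 bases before the start are given for the 4 members with 1 start each, Il6 (chr5:30012864-30013113, plus strand), Csf1 (chr3:107760470-107760719, minus strand), Tgfb1 (chr7:25686752-25687001, plus strand) and Areg (chr5:91139349-91139598, plus strand), to show which sites for cytokine-activated factors lie there, since TNF acts through NF-κB and IL-6 and GM-CSF through STAT factors. Capitals mark matches on either strand to the AP-1 consensus TGANTCA, the cyclic AMP response element TGACGTCA or the NF-κB consensus.
Il6: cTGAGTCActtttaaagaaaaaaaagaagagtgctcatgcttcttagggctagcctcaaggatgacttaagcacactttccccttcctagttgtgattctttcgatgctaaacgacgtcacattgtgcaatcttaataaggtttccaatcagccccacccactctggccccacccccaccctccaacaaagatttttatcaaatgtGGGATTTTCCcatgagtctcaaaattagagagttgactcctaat
Csf1: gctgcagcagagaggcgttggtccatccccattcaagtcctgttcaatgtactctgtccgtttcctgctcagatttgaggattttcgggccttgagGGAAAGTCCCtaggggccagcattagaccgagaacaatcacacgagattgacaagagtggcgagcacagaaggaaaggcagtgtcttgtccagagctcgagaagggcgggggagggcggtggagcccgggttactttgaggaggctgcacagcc
Tgfb1: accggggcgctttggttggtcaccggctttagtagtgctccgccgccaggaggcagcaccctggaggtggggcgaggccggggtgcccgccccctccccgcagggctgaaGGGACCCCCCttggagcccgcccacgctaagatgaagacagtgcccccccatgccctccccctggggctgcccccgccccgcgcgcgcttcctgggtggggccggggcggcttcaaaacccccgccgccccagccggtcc
Areg: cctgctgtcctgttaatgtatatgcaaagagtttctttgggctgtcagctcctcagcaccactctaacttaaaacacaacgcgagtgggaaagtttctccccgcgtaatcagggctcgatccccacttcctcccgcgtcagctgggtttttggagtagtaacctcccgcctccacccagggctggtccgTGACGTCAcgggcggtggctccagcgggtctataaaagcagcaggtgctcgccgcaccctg
Counting back from the start, Il6 held an NF-κB match (GGGATTTTCC) at -44 to -35 and an AP-1 match (TGAGTCA) at -249 to -243, Csf1 an NF-κB match (GGAAAGTCCC) at -154 to -145, and Tgfb1 one (GGGACCCCCC) at -140 to -131. Areg held a cyclic AMP response element at -61 to -54. Of 32851 promoter windows of this length, 7.25% held an NF-κB match, 6.75% an AP-1 match and 1.55% a cyclic AMP response element. The STAT palindrome TTCNNNGAA (7.02% of windows) and the hypoxia core ACGTG (16.6%) matched none of these 4. In the remaining windows, both starts of Vegfa and Tnfsf13b included, one start of Vegfa held an NF-κB site (GGGGCTCCCC, -118 to -109). The other held a hypoxia core, and one start of Tnfsf13b an AP-1 site (TGAGTCA, -127 to -121). The window with the hypoxia core (chr17:46025164-46025413, minus strand) lies inside the Vegfa gene (46016993 to 46032369). The window before the Vegfa gene held no hypoxia core. The window with the AP-1 site (chr8:10006383-10006632, plus strand) reaches into the Tnfsf13b gene, which starts at 10006467. A match is a description of the letters and does not show that a factor binds there.

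Levels of the members spanned a wide range. Per kilobase of exon, Osm averaged 1841 CPM over the 16 libraries, followed by Csf1 (46.7), Hbegf (19.96), Thbs1 (19.1), Tgfb1 (7.21), Tnfsf13b (3.24), Vegfa (0.545), Areg (0.403), Il10 (0.389) and Il6 (0.00637 CPM per kb). Osm alone made up 57.4% to 86.6% of the members' summed CPM in unstimulated libraries and 88.4% to 93.3% in stimulated libraries. The order was not the same under each label. Hbegf lay at 0.71 ± 0.608 CPM per kb (SD, n = 3) in unstimulated Ctrl, below Thbs1 (27.3 ± 2.87), Tgfb1 (5.42 ± 1.72) and Tnfsf13b (2.61 ± 0.870), and at 36.9 ± 9.72 (SD, n = 4) in stimulated Ctrl, above all 3. Csf1 (41.7 ± 15.4 CPM per kb) and Hbegf did not differ beyond their spread in stimulated Ctrl, nor did Thbs1 (11.0 ± 2.76) and Tgfb1 (9.12 ± 1.46). In unstimulated LTβRΔN, Vegfa (0.640 ± 0.320) and Hbegf (0.476 ± 0.315) overlapped in the same way.

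**Figure D1:**
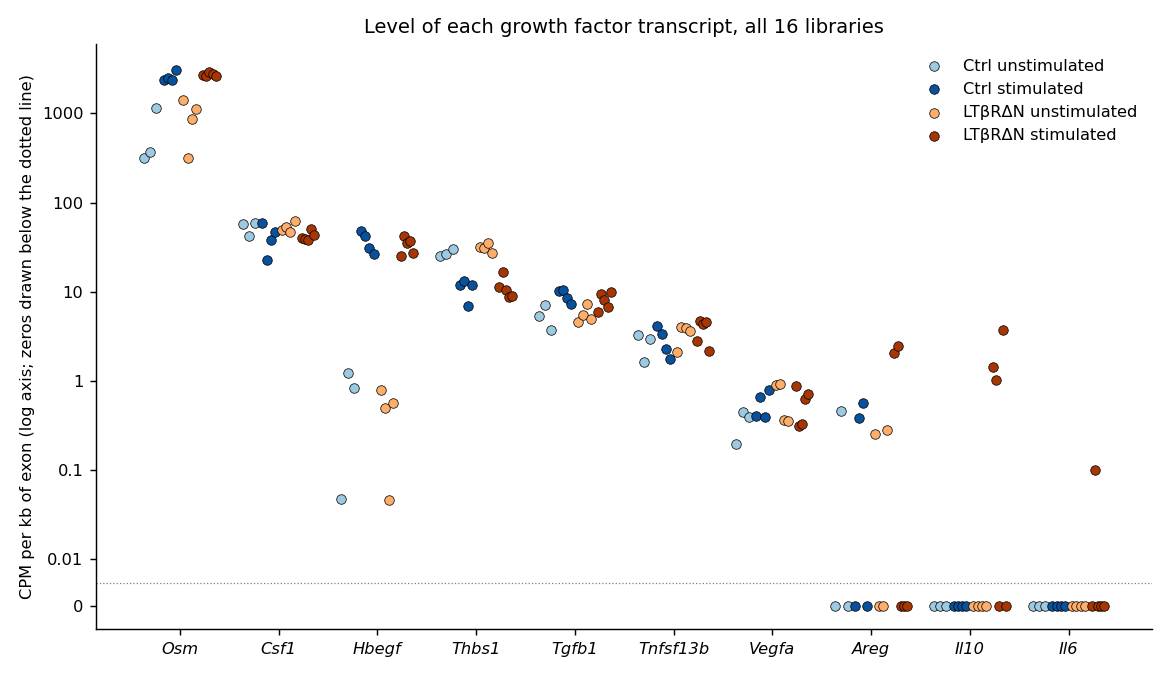
CPM per kb of exon (log axis, zeros below the dotted line) of the 10 members in each of the 16 libraries, with 1 point per library coloured by group. Osm is the top transcript in every library, Hbegf moves from about the level of Vegfa to about that of Csf1 between the labels, and Areg, Il10 and Il6 are at 0 in most libraries.

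The libraries labelled stimulated and unstimulated were compared first, within each genotype, whatever the label stands for. Between stimulated and unstimulated Ctrl, 3 of the 7 tested members changed (edgeR adjusted p under 0.05), Osm and Hbegf upward and Thbs1 downward, against a background of 3.48% of 9213 tested genes (2.82% higher, 0.662% lower). The same 3 members changed in the same directions in LTβRΔN neutrophils, where the background was 3.73% (2.98% higher, 0.749% lower). Tgfb1 also had an unadjusted p under 0.05 in each genotype. CPM of the 2 labels did not overlap for 4 of 7 members in Ctrl (background 12.7%) and 3 of 7 in LTβRΔN (background 7.28%). The members were chosen with earlier results of these data known, so their counts beside the background are a description. The median log2 fold change of the 7 members was 0.70 and 0.14, beside -0.02 and -0.03 over all tested genes. Scaling by library totals only lowered the median of all genes to -0.27 and -0.21 and turned the split of called genes from 260 higher and 61 lower to 202 and 272 in Ctrl, and from 275 and 69 to 216 and 293 in LTβRΔN, with the same 3 members called. In bulk RNA, fewer cells with a transcript and less transcript per cell cannot be told apart.

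**Figure D2:**
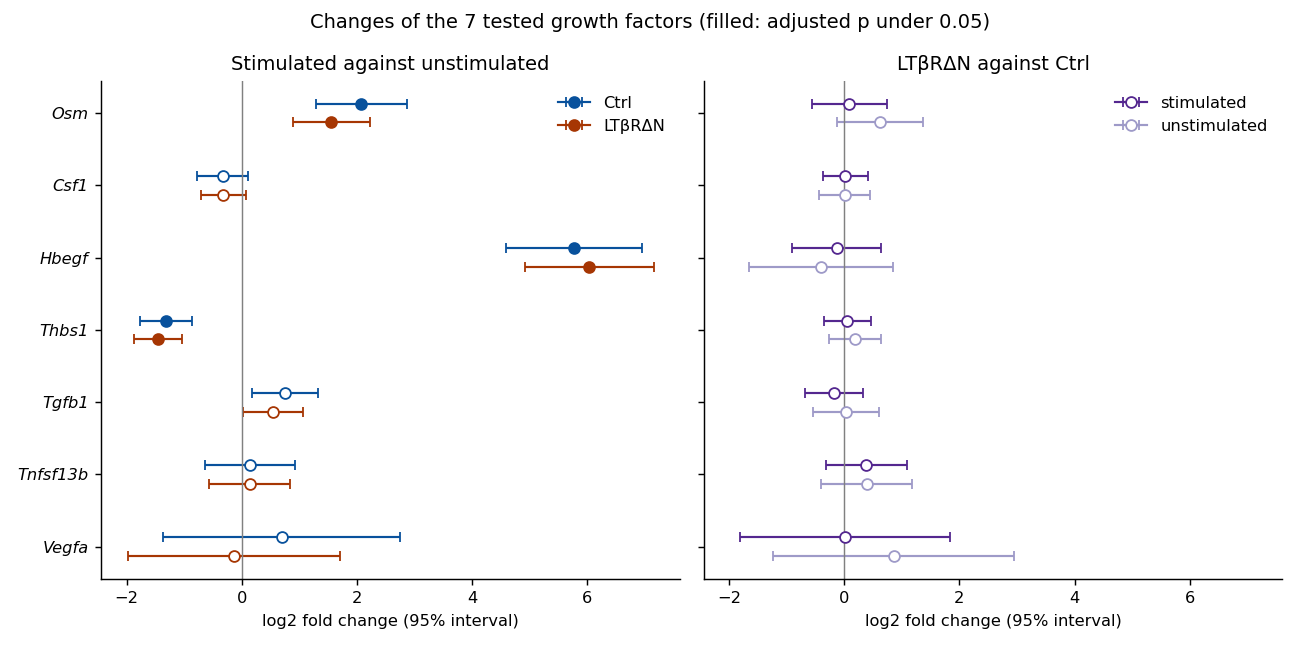
Log2 fold changes with 95% intervals of the 7 tested members, for stimulated against unstimulated (left, by genotype) and LTβRΔN against Ctrl (right, by label), where filled points have an adjusted p under 0.05. Osm, Hbegf and Thbs1 stand off 0 in both genotypes on the left, from 6.04 for Hbegf to -1.45 for Thbs1, and all intervals on the right include 0.

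Osm (ENSMUSG00000058755.3, chromosome 11 of GRCm38, 4236420 to 4241026, plus strand) rose in stimulated neutrophils of each genotype. Unstimulated Ctrl libraries held 712, 842 and 2584 CPM, and stimulated Ctrl libraries held 5316, 5691, 5323 and 6988 CPM. Unstimulated LTβRΔN libraries held 3200, 715, 1977 and 2526 CPM, and stimulated ones 6163, 5987, 6647, 6333 and 5914 CPM. Each stimulated library was above each unstimulated library. Within the unstimulated label the libraries lay far apart, with a coefficient of variation of 75.8% in Ctrl and 50.0% in LTβRΔN, while in the stimulated groups it was 13.6% and 4.74%. The log2 fold change was 2.08 (SE 0.380, edgeR adjusted p = 9.14e-04) in Ctrl, a 4.23-fold difference, and 1.56 (SE 0.325, edgeR adjusted p = 0.00374) in LTβRΔN, a 2.94-fold difference.

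The size of the Osm change moved when the library index entered the fit and when single libraries were left out, and the index and unstimulated Ctrl replicate 3 cannot be told apart. Unstimulated Ctrl replicate 3 (2584 CPM) was the only unstimulated library with index S521, and against it alone the 4 stimulated Ctrl libraries, all S521, were 2.26-fold higher. With the index as a covariate, which only the Ctrl libraries inform, the log2 fold change was 1.17 in Ctrl (edgeR adjusted p = 0.345) and -0.18 in LTβRΔN (edgeR adjusted p = 0.9999). Among the S520 libraries, unstimulated Ctrl replicates 1 and 2 held 712 and 842 CPM. Those of unstimulated LTβRΔN spanned 715 to 3200 CPM. Without unstimulated Ctrl replicate 3, the Ctrl change was 7.48-fold. Without the 3 libraries under 2000000 counts (unstimulated LTβRΔN replicate 2 and stimulated LTβRΔN replicates 1 and 3), the LTβRΔN log2 fold change was 1.24 (edgeR adjusted p = 0.0537).

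Hbegf (ENSMUSG00000024486.6, chromosome 18 of GRCm38, 36504927 to 36515805, minus strand), whose product binds the EGF receptor after it is shed, had the largest change of the 7. It was nearly absent without stimulation, at 0.228, 6.0 and 4.07 CPM in Ctrl and 3.86, 2.40, 0.226 and 2.72 CPM in LTβRΔN, which correspond to between 1 and 53 reads per library. Stimulated libraries held 231, 203, 151 and 128.5 CPM in Ctrl and 123, 205, 172, 179 and 132 CPM in LTβRΔN. The lowest stimulated library was thus far above the highest unstimulated one. The log2 fold change was 5.77 (95% interval 4.59 to 6.95, edgeR adjusted p = 1.55e-07) in Ctrl and 6.04 (4.93 to 7.15, edgeR adjusted p = 2.55e-08) in LTβRΔN. These correspond to 54.6-fold and 65.8-fold. The size in Ctrl rests on few reads, as it was 34.9-fold without unstimulated replicate 1 and 95.2-fold without unstimulated replicate 2. Within index S521, the 4 stimulated Ctrl libraries were 43.8-fold above the single unstimulated one.

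Thbs1 (ENSMUSG00000040152.8, chromosome 2 of GRCm38, 118111876 to 118127133, plus strand), which encodes thrombospondin-1, moved in the opposite direction. Unstimulated libraries held 151, 161 and 185 CPM in Ctrl and 192, 186, 211 and 165 CPM in LTβRΔN. Stimulated libraries held 71.6, 80.4, 42.2 and 72.4 CPM in Ctrl and 68.5, 101, 63.4, 52.9 and 54.6 CPM in LTβRΔN, so the labels did not overlap. Its log2 fold change was -1.32 (SE 0.218, edgeR adjusted p = 2.74e-04) in Ctrl and -1.45 (SE 0.197, edgeR adjusted p = 1.90e-05) in LTβRΔN, or 2.50-fold and 2.74-fold lower. Within index S521, the stimulated Ctrl libraries were 2.78-fold below the single unstimulated one.

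Platelets also carry Thbs1 transcripts, so markers of platelets were read beside it. The 10 platelet markers summed to between 14.4 and 37.2 CPM in 14 libraries, and to 78.9 and 239.8 CPM in stimulated Ctrl replicates 1 and 3. Gp5 had 0 counts in the other 3 groups, and Pf4 reached 86.8 CPM in stimulated Ctrl replicate 3. Without these 2 libraries, a choice made after seeing the data, its log2 fold change in Ctrl was -1.12 (edgeR adjusted p = 0.00666), and the part of platelet transcripts in the Thbs1 levels was not tested. The same replicate 3 also had the highest sum of immature neutrophil markers, 763.6 CPM, beside 40.0 to 316.8 CPM in the other libraries.

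**Figure D3:**
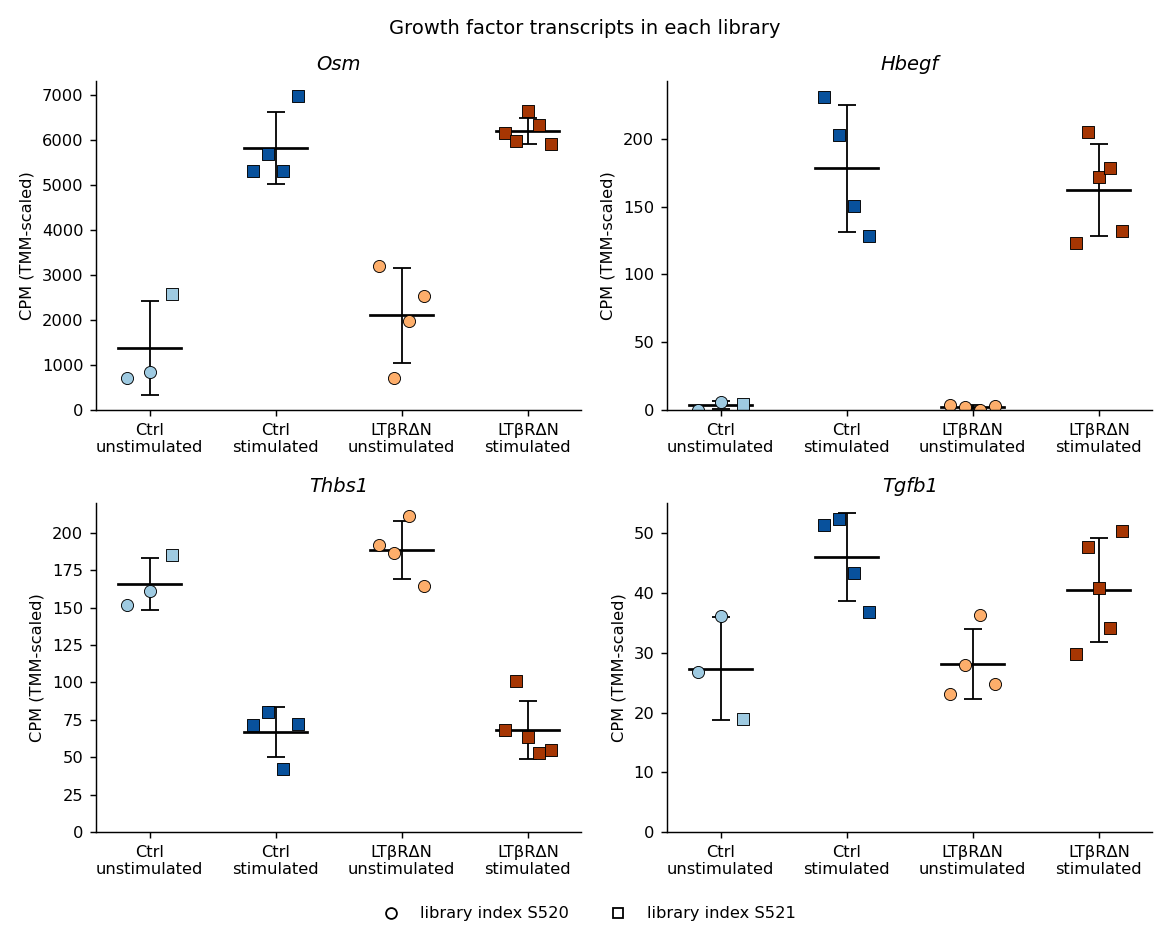
CPM of Osm, Hbegf, Thbs1 and Tgfb1 in each library by group (linear axes from 0), with the group mean and SD as bars and the library index as the marker shape. Stimulated libraries stand above the unstimulated ones for Osm and Hbegf and below them for Thbs1, and the single square among unstimulated Ctrl libraries is the only unstimulated one with index S521.

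Tgfb1 (ENSMUSG00000002603.15, chromosome 7 of GRCm38, 25687002 to 25705077, plus strand) did not pass the test. Unstimulated libraries held 26.8, 36.2 and 18.9 CPM in Ctrl and 23.2, 27.99, 36.4 and 24.8 CPM in LTβRΔN. Stimulated libraries held 51.5, 52.4, 43.4 and 36.8 CPM in Ctrl and 29.9, 47.7, 40.8, 34.1 and 50.3 CPM in LTβRΔN. The Ctrl groups did not overlap, with 36.2 CPM as the highest unstimulated and 36.8 CPM as the lowest stimulated library, and the LTβRΔN groups did. Its log2 fold change was 0.75 (95% interval 0.17 to 1.32, unadjusted p = 0.0130, edgeR adjusted p = 0.215) in Ctrl and 0.54 (0.02 to 1.06, unadjusted p = 0.0414, edgeR adjusted p = 0.351) in LTβRΔN.

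Csf1 and Tnfsf13b, which encode survival factors for the monocyte lineage and for B cells (the latter known as BAFF), were read in every library and showed no call. Csf1 (ENSMUSG00000014599.10, chromosome 3 of GRCm38, 107741048 to 107760469, minus strand) held 278 ± 48.1 (SD, n = 3) and 220 ± 81.5 (SD, n = 4) CPM in unstimulated and stimulated Ctrl, and 279 ± 38.4 (SD, n = 4) and 224 ± 25.6 (SD, n = 5) CPM in LTβRΔN. Stimulated Ctrl libraries ranged from 119 to 314 CPM, which spans all unstimulated Ctrl libraries. The log2 fold change was -0.33 (95% interval -0.78 to 0.11) in Ctrl and -0.32 (-0.71 to 0.08) in LTβRΔN. Tnfsf13b (ENSMUSG00000031497.9, chromosome 8 of GRCm38, 10006467 to 10039072, plus strand) ranged from 11.1 to 32.5 CPM over the 16 libraries, with log2 fold changes of 0.14 (95% interval -0.65 to 0.93) and 0.14 (-0.57 to 0.85). The intervals of Tnfsf13b leave room for an upward change of 1.90-fold and 1.797-fold.

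Vegfa (ENSMUSG00000023951.17, chromosome 17 of GRCm38, 46016993 to 46032369, minus strand) was near the detection limit, with 2 to 27 reads in a library. Unstimulated libraries held 0.836, 1.92 and 1.68 CPM in Ctrl and 3.86, 3.999, 1.58 and 1.53 CPM in LTβRΔN. Stimulated libraries held 1.76, 2.84, 1.68 and 3.37 CPM in Ctrl and 3.73, 1.36, 1.41, 2.69 and 3.10 CPM in LTβRΔN. The labels overlapped in both genotypes. Its log2 fold change was 0.70 (95% interval -1.36 to 2.76) in Ctrl and -0.14 (-1.98 to 1.70) in LTβRΔN, so that a difference of several-fold was not detectable at this depth.

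The transcripts of Areg, Il10 and Il6 were read so rarely that they were removed by the filter and entered no call. Areg (ENSMUSG00000029378.5, chromosome 5 of GRCm38, 91139599 to 91148432, plus strand) had reads in 7 of 16 libraries, at most 24 in a library, which was stimulated LTβRΔN replicate 2 (2.97 CPM). Its second highest level, 2.49 CPM, in stimulated LTβRΔN replicate 1, came from 4 reads. Exact permutation tests of log2 CPM gave unadjusted p = 0.83 for stimulation in Ctrl and 0.444 in LTβRΔN (two-sided).

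Il10 (ENSMUSG00000016529.5, chromosome 1 of GRCm38, 131019845 to 131024974, plus strand), the anti-inflammatory cytokine gene, had 0 reads in all 7 Ctrl libraries and all 4 unstimulated LTβRΔN libraries. Stimulated LTβRΔN libraries had 3, 11, 0, 11 and 0 reads, or 1.87, 1.36, 0, 4.93 and 0 CPM. A count of 0 allows up to 0.297 to 0.711 CPM in the stimulated Ctrl libraries (3 counts per library, counting error only). In the 2 stimulated LTβRΔN libraries without a read it allows up to 2.11 and 1.16 CPM. In unstimulated libraries it allows up to 0.228 to 0.679 CPM, apart from LTβRΔN replicate 2 with 2.40 CPM. This last floor is above the 1.87 and 1.36 CPM, though not the 4.93 CPM, seen in stimulated LTβRΔN. Reads were thus seen under 1 label and genotype only, in 3 of its 5 libraries. The exact permutation test between stimulated LTβRΔN and stimulated Ctrl gave p = 0.167 (two-sided, adjusted p = 0.667 over 8 tests, smallest possible p = 0.00794), and edgeR without the filter gave an unadjusted p = 0.00874 and an adjusted p = 0.586. Il6 (ENSMUSG00000025746.11, chromosome 5 of GRCm38, 30013114 to 30019981, plus strand) had 2 reads in all, both in stimulated LTβRΔN replicate 2 (0.247 CPM). These reads report the cells' own Il6 mRNA and not the IL-6 protein of the culture.

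The genotype comparison asks whether neutrophils without LTβR make other amounts of these factors. It gave 0 calls among the 7 tested members in stimulated neutrophils, where the background was 0.0217% (2 of 9213 genes, and 14 by DESeq2), and 0 in unstimulated neutrophils, where it was also 0.0217% (2 genes, and 4 by DESeq2). Under each label, 1 of the 2 genes called by edgeR was Ltbr, the deleted gene. Over all genes, 591 and 258 had an unadjusted p under 0.05, and 0 of the members did in either comparison. Stimulated libraries all carried index S521, and their differences were small: the log2 fold change of LTβRΔN against Ctrl was 0.09 (95% interval -0.56 to 0.74) for Osm, -0.13 (-0.90 to 0.64) for Hbegf and 0.05 (-0.36 to 0.46) for Thbs1. For Csf1 it was 0.02 (-0.38 to 0.42), for Tgfb1 -0.17 (-0.67 to 0.33), for Tnfsf13b 0.38 (-0.32 to 1.09) and for Vegfa 0.02 (-1.80 to 1.84). The intervals of Thbs1 and Csf1 end below 1.38-fold in either direction, whereas that of Vegfa reaches 3.59-fold.

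In unstimulated neutrophils the widest gap among the members with at least 31 reads in every library was that of Osm, whose log2 fold change of LTβRΔN against Ctrl was 0.61 (95% interval -0.13 to 1.36, unadjusted p = 0.102, edgeR adjusted p = 1). This value rests on single libraries, as it was 1.44 (edgeR adjusted p = 0.363) without unstimulated Ctrl replicate 3 and 0.30 (edgeR adjusted p = 1) without unstimulated Ctrl replicate 1. Within index S520 the 4 LTβRΔN libraries spanned 715 to 3200 CPM and the 2 Ctrl libraries 712 and 842 CPM. The other 6 members lay between -0.40 (Hbegf) and 0.86 (Vegfa), each with an interval that includes 0. The stimulation change itself was also compared between the genotypes by an interaction term, which called 0% of all genes and 0 members (342 genes had an unadjusted p under 0.05). For Osm the difference of the changes was -0.52 (95% interval -1.50 to 0.46), and it lay between -1.35 without unstimulated Ctrl replicate 3 and -0.21 without unstimulated Ctrl replicate 1. The difference was 0.27 for Hbegf (-1.20 to 1.74) and -0.13 for Thbs1 (-0.74 to 0.48). The intervals leave room for a response 2.83-fold lower in LTβRΔN for Osm and 3.34-fold higher for Hbegf.

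Genes that act with these factors were read from 5 lists, which were chosen with earlier results of these data known. Counts of called genes stand beside the same background as above, as a description and not as a test of the lists. That background was 3.48% of tested genes in Ctrl (2.82% higher) and 3.73% in LTβRΔN (2.98% higher). Of 23 receptor genes 11 were tested, and Il10ra, the ligand-binding chain of the IL-10 receptor, was the only one called, upward in each genotype. It rose from 138, 117 and 136 to 752, 839, 790 and 549.3 CPM in Ctrl and from 173, 160, 155 and 141 to 525, 830, 751, 527 and 642 CPM in LTβRΔN, with log2 fold changes of 2.49 and 2.06 (edgeR adjusted p = 8.01e-10 and 1.53e-09). It was also the receptor gene with the highest level per kilobase. Il10rb, Cd47, Csf1r and Il6ra were expressed without a call. Osmr and Il6st, which form the receptor of oncostatin M, had 0 counts in all 16 libraries, and the EGF receptor gene Egfr averaged at most 0.12 CPM in any group. The annotation used for counting is not given. Whether the 0 counts of Osmr and Il6st reflect absent transcripts or the counting was not tested.

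Of 24 genes for shedding and activation 11 were tested. Furin, a protease that cuts the TGF-β1 precursor, was the only one called, by 1.08 in Ctrl (edgeR adjusted p = 4.07e-04) and 0.98 in LTβRΔN (edgeR adjusted p = 3.11e-04) on the log2 scale. Adam17, which sheds HB-EGF and amphiregulin, averaged 30.9 ± 6.44 CPM without stimulation (SD, n = 3) and 35.4 ± 10.2 CPM with it (SD, n = 4) in Ctrl, and Mmp9 had the highest level of the list. Of 36 related growth factors only 6 were tested and 0 were called in either genotype, although 1 had an unadjusted p under 0.05 in each. That gene was Csf3, which encodes G-CSF and had 0 counts in all 7 unstimulated libraries and 0 to 8.51 CPM in stimulated ones, a gene outside the rule for named genes that was chosen after its values were seen. Prok2 had the highest level of that list per kilobase.

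Of 21 hypoxia response genes, Vegfa being a known target of that response, 17 were tested. Egln3 (a prolyl hydroxylase) and Slc2a1 (a glucose transporter) rose in each genotype, by 4.93 and 0.98 in Ctrl and by 4.66 and 0.90 in LTβRΔN on the log2 scale. Hif1a was called in LTβRΔN, at 0.50 (edgeR adjusted p = 0.0190), and held 0.01 in Ctrl, while the test of that difference gave an unadjusted p = 0.0144 and an edgeR adjusted p = 0.9999. Ldha, with the highest level of the list, Pgk1 and Bnip3 were not called, and the list's median was -0.07 in Ctrl and 0.20 in LTβRΔN.

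Of 16 SMAD and TGF-β response genes 13 were tested, and 4 were called in each genotype, all of them upward, where 2.82% (Ctrl) and 2.98% (LTβRΔN) of all tested genes were called higher. Skil, Tgif1 and Tgif2, which encode repressors of SMAD activity, were called in both, by 1.503, 1.18 and 1.19 in Ctrl and by 1.67, 1.30 and 1.11 in LTβRΔN on the log2 scale. The repressor gene Ski (1.67, edgeR adjusted p = 0.0467) was called in Ctrl, with 0.93 in LTβRΔN (edgeR adjusted p = 0.314). Smad4, the shared partner of the receptor-activated SMADs, was called in LTβRΔN (1.43, edgeR adjusted p = 0.0166), with 1.18 in Ctrl (edgeR adjusted p = 0.118), and the interaction term called neither. Tgfbi, which had the highest level of the list and is known to be induced by TGF-β, had log2 fold changes of -0.15 and -0.24 without a call. The list's median was 0.51 and 0.47, beside -0.02 and -0.03 over all tested genes.

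**Figure D4:**
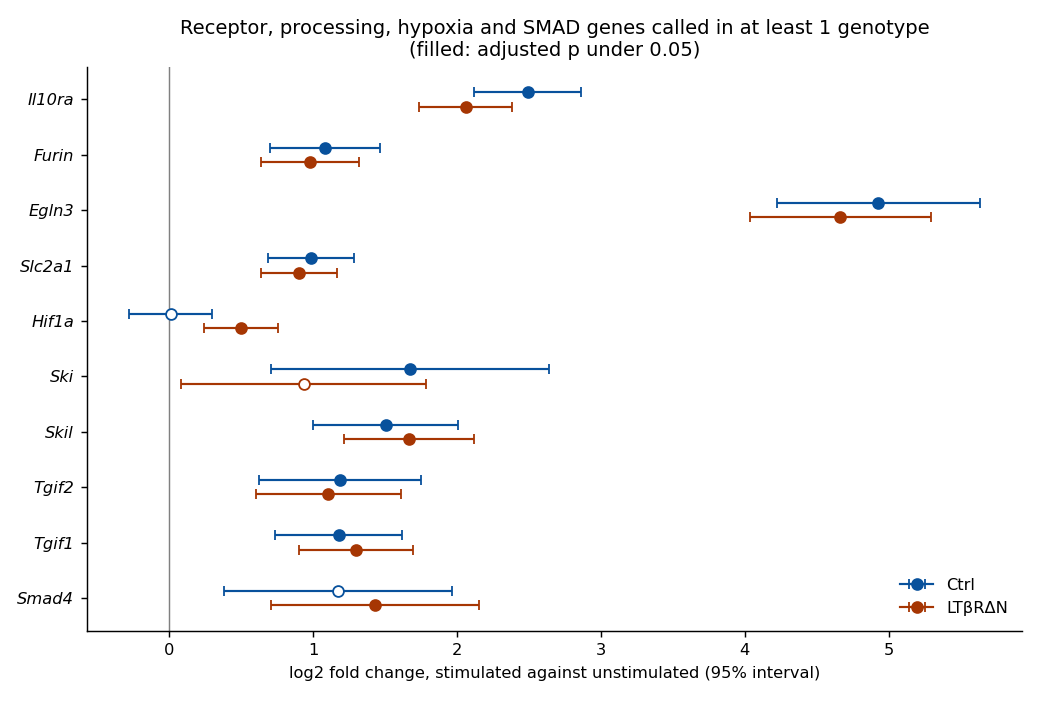
Log2 fold changes with 95% intervals between stimulated and unstimulated neutrophils for each receptor, processing, hypoxia or SMAD gene called in at least 1 genotype, where filled points have an adjusted p under 0.05. Egln3 (4.93 and 4.66) and Il10ra (2.49 and 2.06) moved furthest, and 7 of the 10 genes are filled in both genotypes.

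The genes closest in pattern to each member were taken as those with the smallest root mean square difference in log2 CPM, centred on each gene's mean over the 16 libraries, as a description that shared library effects also shape. Closest to Osm were Zfp36 (0.276) and Ppp1r15a (0.289), both early response genes. Zfp36 averaged 2626 CPM in unstimulated and 14859 CPM in stimulated Ctrl, and 3526 and 15704 CPM in LTβRΔN. Closest to Hbegf were Ffar2 (0.877), a receptor of short-chain fatty acids, and Tnfaip3 (0.919), a brake on NF-κB, where the spread of Hbegf around its own mean was 3.21.

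Closest to Thbs1 were Plk3 (0.343) and Tfip11 (0.346). Plk3, a stress-activated kinase gene, fell with it from a mean of 1047 to 438 CPM in Ctrl. Tgfb1 was closest to Birc3 (0.211) and Ninj1 (0.248), and Birc3, an inhibitor of apoptosis that TNF induces, averaged 158 CPM in unstimulated and 277 CPM in stimulated Ctrl. Closest to Csf1 were Rbm47 (0.246) and Crk (0.2503), to Tnfsf13b Tgm2 (0.278) and Rap1gap2 (0.359), and to Vegfa Eepd1 (0.354) and Npm1 (0.403). These last 3 members and Tgfb1 varied little themselves, with a spread around their own mean of 0.346 (Csf1), 0.475 (Tnfsf13b), 0.550 (Vegfa) and 0.426 (Tgfb1).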

How the data were processed

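Libraries were made from Trizol LS lysates by reverse transcription, cDNA amplification and further PCR, and were sequenced as single reads. The authors deposited raw counts per gene symbol for the 16 libraries. The submitters' processing notes name Bowtie 1.0.0, TopHat 1.4.1, HTSeq 0.7.1 and build mm10, while the annotation and strand setting are not given in the sources used here. Without molecular identifiers, counts can hold PCR copies, so floors of 3 counts cover counting error only.

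Genes were filtered by filterByExpr (minimum count 10, minimum total 15), scaled by TMM and fitted with edgeR 4.0.16 in R 4.3.3, by the quasi-likelihood test with 1 coefficient per group over all 16 libraries. P-values were adjusted by the Benjamini-Hochberg method over 9213 genes. Removed members were tested by two-sided exact permutation of log2 CPM (prior count 2), over 8 possible tests. Intervals are 95% intervals from the fit. Length is that of the merged exons in the annotation of GRCm38, matched by symbol. The scripts were tested on simulated data.

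The members and gene lists were chosen with earlier results of these data known. Named genes are all members, the list genes called in a stimulation comparison, the gene with the highest level of each list, and the 2 genes closest in pattern to each tested member. A few other list genes (Il10rb, Cd47, Csf1r, Il6ra, Osmr, Il6st, Egfr, Adam17, Csf3, Pgk1, Bnip3) were named after their values were seen. Alternatives were other scalings, filters and tests, the index as a covariate, a block on the column numbers, and leaving out libraries. Same-group libraries differed by 7.12 to 50.4 times the sampling noise (chi-square per degree of freedom), so no 2 were counted as 1 library, although this does not show that they came from separate mice.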

Additional observations from a re-analysis of the deposited data

Results flagged for a closer look

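The Il6 level of stimulated LTβRΔN replicate 2 stood apart from the other 4 libraries of its group, because its 0.247 CPM (2 reads) was the only level above 0. It was 1 of 26 groups of member levels examined in this way, in which chance would flag about 1.3 if levels were continuous. That figure does not hold for groups made mostly of 0 counts. Where only 1 library of an examined group has reads, that library is always flagged.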

How the results depend on the processing

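All 3 called members kept their direction and their call in both genotypes in every alternative that tested them, apart from Osm. With the library index as a covariate, Osm was no longer called in Ctrl (1.17, adjusted p = 0.345) and turned to -0.18 in LTβRΔN, and it lost its call in LTβRΔN (1.24, adjusted p = 0.0537) without the libraries under 2000000 counts. Hbegf and Vegfa could not be tested where each library had to hold at least 10 counts. The number of genes called for stimulation fell to 157 in Ctrl and 79 in LTβRΔN with the index covariate, where only 1 unstimulated library shares the index of the stimulated ones, while the interaction then called 1. Genes called by genotype numbered 1 (stimulated) and 1 (unstimulated) with at least 10 counts in every library, 14 and 4 by DESeq2, and 4 (unstimulated) with every gene kept. When each library was left out in turn, the unstimulated genotype count ranged from 2 to 6 and the interaction count from 0 to 2, both highest without unstimulated Ctrl replicate 1. By plain CPM, not per kilobase, 6 of the 10 members kept their place in the order of levels, as Hbegf and Thbs1 changed places and so did Areg and Il10.

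Column names carry a number that 7 unstimulated and stimulated libraries share, with a meaning that the labels do not give. Deviations of libraries with the same number had r between 0.0720 and 0.289, over 0.1 in 5 of 7 pairs, and each correlated best with its own number, which is a hint from the data only. With a replicate block on this number, 324 genes were called in Ctrl, 342 in LTβRΔN and 0 by interaction, 3, 3 and 0 of them members, and Tnfsf13b in the interaction was at 0.054.

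Of 61 reversed signs 60 concerned changes that were not called, and the cause was not tested. The Tnfsf13b interaction became 0.018 (upper quartile), 0.039 (totals only), 0.0094 (at least 10 counts), 0.0016 (DESeq2), 0.12 (libraries under 2000000 counts left out) and 0.17 (2 platelet-rich libraries left out). Stimulation changes of Tnfsf13b became -0.093, -0.042 and -0.033 in Ctrl (totals only, index, platelet-rich libraries out) and -0.054 and -0.15 in LTβRΔN (totals only, index). Genotype differences in unstimulated neutrophils became -0.044 for Csf1 and -0.025 for Tgfb1 (totals only), and -0.17 for Tgfb1 with the index, which also turned the Csf1 interaction to -0.068. Without the libraries under 2000000 counts Vegfa was at 0.019 (stimulation, LTβRΔN) and -0.031 (genotype, stimulated), and without the 2 platelet-rich libraries the stimulated genotype differences were -0.029 for Osm, -0.35 for Vegfa and -0.15 for Thbs1. Leaving out each library in turn gave ranges across 0 for the stimulated genotype difference of Csf1 (-0.18 to 0.24), Hbegf (-0.26 to 0.019), Thbs1 (-0.16 to 0.15) and Vegfa (-0.17 to 0.23), for the unstimulated one of Csf1 (-0.13 to 0.086), Hbegf (-1.04 to 0.41) and Tgfb1 (-0.17 to 0.29), for the interaction of Csf1 (-0.19 to 0.23), Hbegf (-0.54 to 0.91) and Tnfsf13b (-0.19 to 0.25), and for stimulation of Tnfsf13b (-0.12 to 0.33 in Ctrl, -0.044 to 0.28 in LTβRΔN) and Vegfa (-0.35 to 0.096 in LTβRΔN).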
